A study of Mus musculus with 11 samples.

Results

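Itgae and Pacsin1 are the only rows that a deposited table of 417 mouse genes holds from marker lists of conventional dendritic cells of type 1 (cDC1; 1 of 18 listed genes) and of plasmacytoid dendritic cells (1 of 26), and both were looked up by gene symbol, 2 of 417 rows. The table compares spleen dendritic cells of mice that carry 1 uromodulin allele with cysteine changed to phenylalanine (C105F/+, also written C106F in the labels; 5 libraries, numbered 2 to 6) with cells of wild type littermates (6 libraries, numbered 1 to 6). The mice were of the C57BL/6J strain, the change was made with Cas9 in embryos, and they were killed at 12 to 16 weeks. Dendritic cells were enriched by magnetic removal of other cells, to a purity that the labels leave out. Sex, batch and injury are also missing from the labels. Whether every library stands for a separate animal is not stated, and the p-values below speak only of the spread among libraries. The authors had kept a row only if it differed at least 2-fold (smallest absolute fold 2.0009) at an unadjusted p under 0.05 (largest 0.0493). Each gene below was thus already chosen for a difference between the genotypes, and its own test is a description, not independent evidence.

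Dendritic cells take up antigen and present it to T cells, and the subsets divide this work. Itgae encodes CD103, the integrin alpha chain that pairs with the beta 7 chain and binds E-cadherin on epithelia. In the mouse spleen CD103 marks a large share of cDC1, the cells that cross-present antigen from dead cells to CD8 T cells, but it is also carried by regulatory and tissue-resident T cells. Pacsin1, also called syndapin 1, is an F-BAR protein that bends membrane and binds dynamin during endocytosis. It is best known from neurons, and among blood cells it is a marker of plasmacytoid dendritic cells, where in mice it takes part in the interferon response to Toll-like receptors 7 and 9.

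In RefSeq on GRCm38.p6, the build that mm10 names, Itgae (Entrez 16407) spans chromosome 11, 73090505 to 73147449, on the plus strand, and Pacsin1 (Entrez 23969) spans chromosome 17, 27655591 to 27711118, also on the plus strand. In GENCODE M21 the gene Haspin (73135485 to 73138294) lies on the opposite strand within Itgae and overlaps no Itgae exon. The libraries were directional, but whether reads were counted by strand is unknown here. GENCODE lists 11 Pacsin1 transcripts with 11 distinct starts, and the counts do not separate them. The RefSeq table of promoters held 1 window for Pacsin1 and none for Itgae. The window is shown because Pacsin1 moved with other rows, described below; it runs from 250 bases before to 50 after the start at 27685239 (chr17:27684989-27685288, plus strand), capitals mark a RUNX core, and 4 of the 11 GENCODE transcripts start within 100 bases of that start.

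Pacsin1 promoter window: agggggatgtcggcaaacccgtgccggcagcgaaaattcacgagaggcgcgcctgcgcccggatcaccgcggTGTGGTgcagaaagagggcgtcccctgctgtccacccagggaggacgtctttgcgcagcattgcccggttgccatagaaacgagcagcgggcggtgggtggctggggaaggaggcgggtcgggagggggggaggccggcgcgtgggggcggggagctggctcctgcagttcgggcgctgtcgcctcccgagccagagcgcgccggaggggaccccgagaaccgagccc

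The window is 71.7% G and C, against a median of 52.7% over 32817 promoter windows of the same length. On both strands it held 1 match to the RUNX core TGTGGT, found in 16.8% of all windows, 2 matches to the GC box GGGCGG (35.6% of windows) and 1 to the ETS core GGAA (96.0%). No match was found to the E-box CANNTG (72.3% of windows), the AP-1 site TGANTCA (7.81%) or the interferon response core GAAANNGAA (8.55%). These matches describe letters in this window only.

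Size factors, which give relative depth and were recovered from the deposited counts and means, were lowest for wild type 1 (0.615) and highest for C105F/+ 2 (1.98). The total depth of a library is not known, since only selected rows are listed. Among the 11 libraries 2 stood apart. Wild type 4 was below 0.5 times the lowest other wild type library in 60 rows (14.4%), 44 of them rows that the authors list as higher in C105F/+. C105F/+ 3 lay at or below the highest wild type library in 89 rows (21.3%) in which the other 4 C105F/+ libraries were all above every wild type library. The folds of both genes are therefore given with and without these libraries.

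Itgae had the larger fold of the pair between genotypes, though the folds were not shown to differ (below). Its scaled counts, which are read counts divided by the size factor, were 839 in wild type 1, 460.0 in wild type 2, 614 in wild type 3, 99.5 in wild type 4, 896 in wild type 5 and 871 in wild type 6. In C105F/+ they were 3677 in library 2, 843 in library 3, 1950.5 in library 4, 2601 in library 5 and 2705 in library 6. C105F/+ 2, 4, 5 and 6 thus lay above every wild type library, whereas C105F/+ 3 fell among the upper wild type libraries. The means were 2355 ± 1046 (SD, n = 5) and 630 ± 311 (SD, n = 6), a 3.74-fold difference, 3.20-fold without wild type 4 and 4.34-fold without C105F/+ 3. The raw counts behind these values were at least 95 reads, in wild type 4, and at most 7278, in C105F/+ 2. In bulk libraries, fewer cells of a type and less RNA per cell cannot be told apart.

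The log2 fold change of Itgae was 1.90 (SE 0.50) by edgeR's quasi-likelihood test, with a Benjamini-Hochberg adjusted p of 0.0226 over the 322 rows tested, and exact two-sided permutation of the genotype labels gave p = 0.0065. The adjustment covers only rows already selected for their difference, so it is lenient for a statement about all genes. In the authors' deposited table the log2 fold change was also 1.90, with an adjusted p of 0.00967. Without C105F/+ 2, without C105F/+ 5 or without C105F/+ 6 the edgeR adjusted p was 0.0617, 0.0623 and 0.0573.

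**Figure D1:**
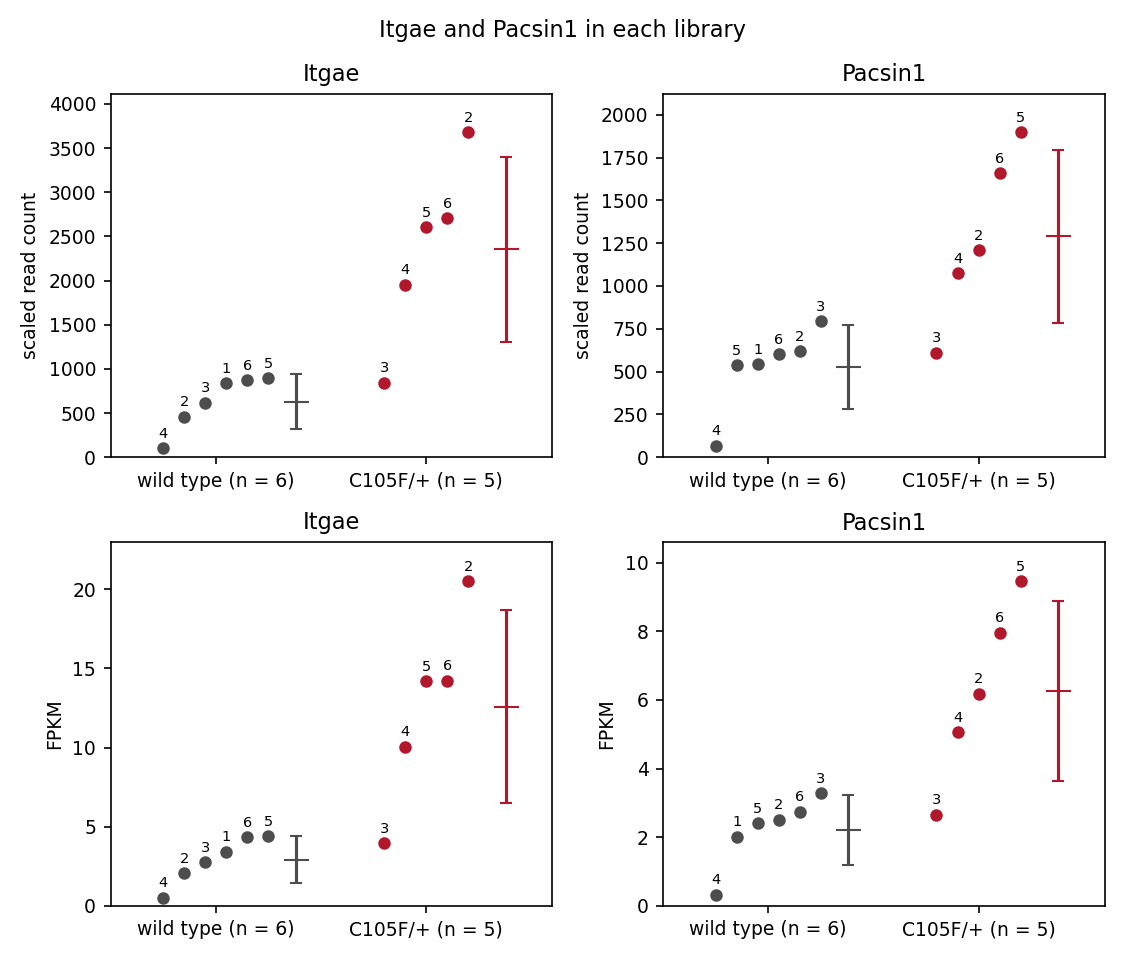
Scaled read counts (upper row) and FPKM (lower row) of Itgae and Pacsin1 in each library; points carry the replicate number, and the bar beside each group is the mean with its SD. In all 4 panels wild type 4 is the lowest library, C105F/+ 3 lies within the range of wild type and the other 4 C105F/+ libraries lie above it.

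Pacsin1 differed less. Its scaled counts were 543 in wild type 1, 619 in wild type 2, 795 in wild type 3, 68.1 in wild type 4, 538 in wild type 5 and 601 in wild type 6. In C105F/+ they were 1209 in library 2, 611 in library 3, 1076 in library 4, 1896 in library 5 and 1659 in library 6. The other 5 wild type libraries kept within a narrow range, with wild type 4 far under it and C105F/+ 3 again inside it. The means were 1290.2 ± 504 (SD, n = 5) and 527 ± 244 (SD, n = 6), a 2.45-fold difference, 2.08-fold without wild type 4 and 2.77-fold without C105F/+ 3. The fewest raw reads were again in wild type 4, with 65, and the most in C105F/+ 2, with 2393.

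By edgeR the log2 fold change of Pacsin1 was 1.29 (SE 0.48, adjusted p = 0.0354), and the exact permutation p was 0.0173. The authors' deposited table gives Pacsin1 the same log2 fold change, 1.29, but an adjusted p of 0.0962, so it did not pass among all the genes they tested. The edgeR adjusted p was above 0.05 without C105F/+ 2 (0.0686), without C105F/+ 5 (0.0819), without C105F/+ 6 (0.0755) and without wild type 1 (0.0517).

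Both genes were thus called higher by edgeR, as were 52.5% of the rows tested, and 1 of the 2 in the authors' deposited table, where 21.1% of rows were called higher. In neither did the groups separate fully, against 10.1% of rows higher in C105F/+ with no overlap. The pattern of C105F/+ 2, 4, 5 and 6 above every wild type library and C105F/+ 3 not was found in both genes and in 21.3% of all rows. With 2 genes and a table selected for the difference, these counts do not set the pair apart. The median log2 fold change over the rows tested was 1.11. Itgae stood 0.79 above that median and Pacsin1 0.18 above it. The size of every fold depends on the scaling, because the authors' size factors came from all genes and only selected rows remain. With the authors' factors edgeR called 169 rows higher and 71 lower. With TMM factors computed on the rows it called 8 higher and 106 lower, the median fell to 0.16, and Itgae (0.84, adjusted p = 0.19) and Pacsin1 (0.26, adjusted p = 0.731) stayed above 0 but did not pass. With DESeq2 size factors computed on the rows it called 12 higher and 91 lower, and Itgae (1.09, adjusted p = 0.0715) and Pacsin1 (0.49, adjusted p = 0.372) did not pass either.

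FPKM, which divides by gene length and so allows levels of both genes to be set side by side, put the same libraries lowest and highest for each gene. Itgae had 12.6 ± 6.11 FPKM in C105F/+ (SD, n = 5) and 2.91 ± 1.49 in wild type (SD, n = 6), a 4.32-fold difference. Pacsin1 had 6.27 ± 2.63 FPKM and 2.21 ± 1.02 FPKM, a 2.83-fold difference. The lowest FPKM of both genes was in wild type 4, with 0.510 for Itgae and 0.316 for Pacsin1. The highest differed, with 20.5 for Itgae in C105F/+ 2 and 9.47 for Pacsin1 in C105F/+ 5. On the authors' log2 normalized scale Itgae spanned 8.19 to 11.31 and Pacsin1 7.73 to 10.45.

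The ratio of the genes within a library does not depend on the size factor. By FPKM, Itgae exceeded Pacsin1 in all 5 C105F/+ libraries, by 1.49-fold in library 3, 1.50-fold in library 5, 1.79-fold in library 6, 1.98-fold in library 4 and 3.32-fold in library 2. In wild type it exceeded Pacsin1 in 4 of 6 libraries, by 1.58-fold to 1.83-fold. In wild type 2 and wild type 3 it was the lower of the pair, at 0.815 and 0.842 times the Pacsin1 level. C105F/+ 2 stood out among its group by high Itgae and only the third highest Pacsin1.

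On scaled counts the log2 ratio of Itgae to Pacsin1 was 0.82 ± 0.47 in C105F/+ (SD, n = 5) and 0.27 ± 0.53 in wild type (SD, n = 6). The difference of 0.54 did not pass an exact two-sided permutation test (p = 0.152), and it fell to 0.35 without C105F/+ 2 (p = 0.29). The larger fold of Itgae was therefore not shown to differ from that of Pacsin1, and neither was it shown that the genes rose alike.

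**Figure D2:**
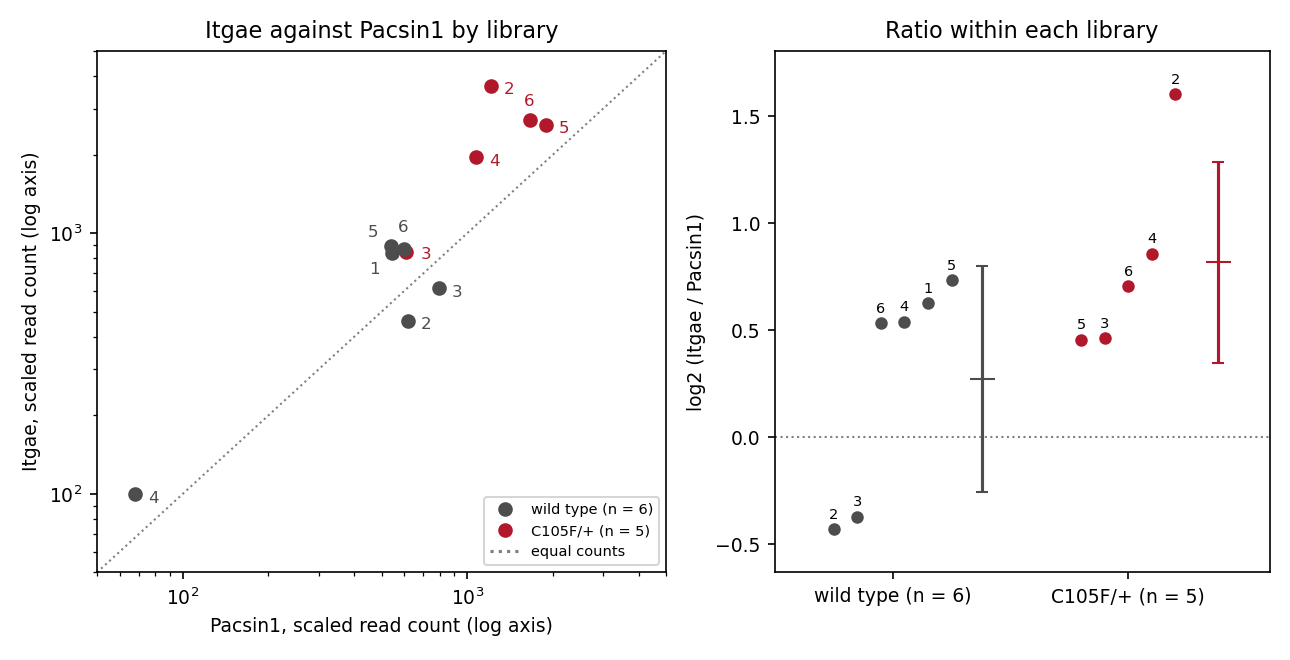
Left, scaled counts of Itgae against Pacsin1 in each library on log axes, with a dotted line of equal counts; right, the log2 ratio of Itgae to Pacsin1 per library with the mean and SD of each group. Numbers are replicate numbers: wild type 4 is low in both genes, C105F/+ 3 sits among the wild type libraries, and wild type 2 and 3 have ratios below 0.

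Within wild type the pair had no steady relation. Pearson's r on log2 scaled counts was 0.91 over 6 libraries (exact permutation p = 0.131, adjusted p = 0.294 over 9 relations), but Spearman's rho was -0.03 (exact permutation p = 1). Without wild type 4 and wild type 3, the libraries farthest from the median of Pacsin1, r was -0.71 (n = 4), and without wild type 4 alone it was -0.53. On FPKM the same values were 0.07 and -0.18, with rho 0.26 over the 6 libraries (exact permutation p = 0.658), so the size of r among the remaining libraries, and with 4 libraries its sign, depends on the scale. The Pearson value over 6 libraries thus rests on wild type 4. On scaled counts, among the remaining libraries, wild type 2 and 3 had the lowest Itgae and the highest Pacsin1.

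The deposited lymphocyte rows were higher in C105F/+ on the authors' scaling, but each had been kept by the authors for a difference. Listed genes without a row are of unknown level. All rows of T cells (4 of 30 listed genes had a row), B cells (8 of 25), plasma cells (9 of 25) and NK cells (6 of 25) were higher in C105F/+, and edgeR called 4 of 4, 8 of 8, 9 of 9 and 4 of the 5 tested, against 52.5% of all rows tested. In the authors' deposited table the calls were 2 of 4, 4 of 8, 6 of 9 and 2 of 6, against 21.1% of all rows. With TMM factors on the rows all of these tested rows kept a log2 fold change above 0. Only 1 T cell row and 1 plasma cell row were then called, against 8 of all 323 rows tested called higher. With DESeq2 factors on the rows 2 T cell rows, 1 B cell row and 1 plasma cell row were called, against 12 of all 320 rows tested called higher. The authors' median folds over these rows were 4.18, 3.46, 3.19 and 4.09, against 2.14 over all 417 rows, of which 253 were higher. Defining genes such as Cd3e and Klrb1c were not among these rows, and their levels are unknown here. Ncr1, a receptor that defines NK cells, had no read in 5 of 6 wild type libraries and in C105F/+ 3. These lists share Pou2af1 between B cells and plasma cells. 

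T cell rows summed to 250.4 to 1351 scaled counts in C105F/+ and to 155 to 227 in wild type. Cd28, which gives T cells a second activating signal, reached 337 ± 159 scaled counts in C105F/+ and 79.9 ± 25.8 in wild type (edgeR adjusted p = 0.0146). Ctla4, an inhibitory receptor that regulatory T cells carry, had 219 ± 149 against 49.3 ± 22.8 (edgeR adjusted p = 0.0206). The adhesion receptor Cd2 had 177 ± 141 against 42.8 ± 30.1 (edgeR adjusted p = 0.0295, exact permutation p = 0.0887). C105F/+ 2 had the highest T cell sum as it had the highest Itgae, and C105F/+ 3 the lowest of its group in both.

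B cell rows summed to 2112 to 13555 scaled counts in C105F/+ and to 1710 to 5721 in wild type. Their most abundant rows were Cd79a, a signalling chain of the B cell receptor, Pou2af1, a coactivator of B cell transcription, and Ms4a1, which encodes CD20. Wild type 4 held the 5721, against at most 2396 in the other wild type libraries, so the library with the least Itgae and Pacsin1 had the most B cell transcripts of its group. Cd79a had 2041 scaled counts in wild type 4 and 207 to 530 in the other wild type libraries (3.73-fold higher in C105F/+, 7.01-fold without wild type 4; exact permutation p = 0.0931). Pou2af1 was 4.57-fold higher, 8.99-fold without wild type 4, and Ms4a1 2.32-fold.

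Plasma cell rows summed to 19268 to 219628 scaled counts in C105F/+ and to 21502 to 32548 in wild type, led by Jchain, the joining chain of secreted IgM and IgA, Txndc5, a folding enzyme of the secretory route, and Mzb1, a chaperone of antibody assembly. C105F/+ 3 held the lowest plasma cell sum of all 11 libraries. NK cell rows summed to 180.2 to 1156 in C105F/+ and 122 to 326 in wild type, with Il2rb, a receptor chain for interleukins 2 and 15, Eomes, a transcription factor of cytotoxic cells, and the integrin chain Itga1 the most abundant. Il2rb was 3.60-fold higher, 7.25-fold without wild type 4 (exact permutation p = 0.0974). In each of the 4 sums C105F/+ 2, 5 and 6 were the highest 3 libraries, and within C105F/+ library 4 came next and library 3 last, as for Itgae and Pacsin1.

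**Figure D3:**
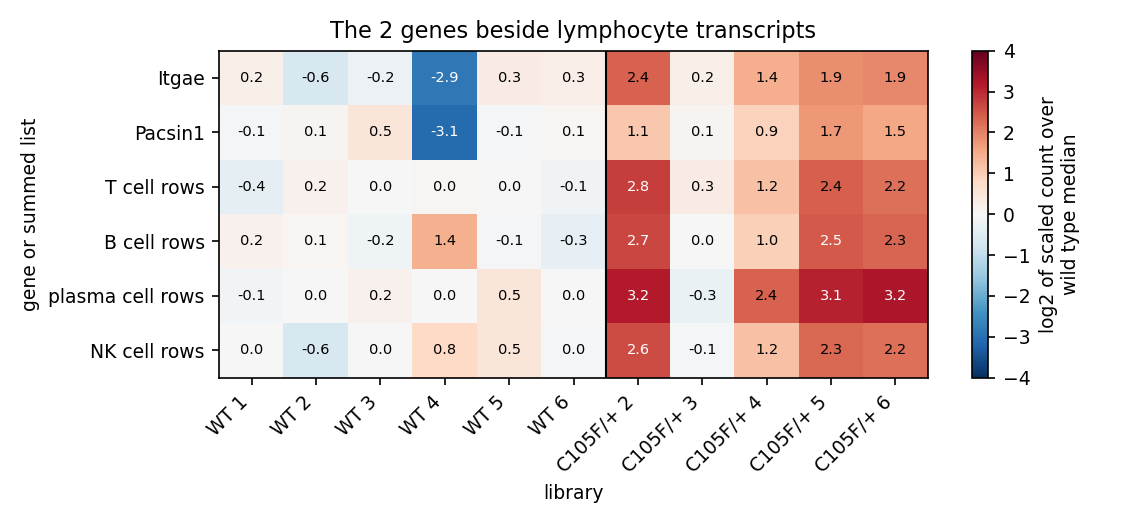
Log2 of the scaled count over the median of the 6 wild type libraries, for Itgae, Pacsin1 and the summed rows of each lymphocyte list (rows) in each library (columns); red is above and blue below that median. Both genes are lowest in wild type 4, where the B cell sum is raised, and all 6 measures are close to 0 in C105F/+ 3, between -0.28 and 0.33.

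Set against the lymphocyte rows of the same library, neither gene passed a test between genotypes. The log2 ratio of Itgae to the summed T cell rows was 1.64 ± 0.31 in C105F/+ (SD, n = 5) and 1.41 ± 1.30 in wild type (SD, n = 6), a difference of 0.23 (exact permutation p = 0.851). To the B cell rows the difference was 0.54 (p = 0.786), to the plasma cell rows -0.19 (p = 0.775) and to the NK cell rows 0.50 (p = 0.81), all exact permutation p-values. For Pacsin1 the differences were -0.32 to the T cell rows (p = 0.671), -0.0024 to the B cell rows (p = 1), -0.73 to the plasma cell rows (p = 0.31) and -0.04 to the NK cell rows (p = 0.976), by the same exact test. The adjusted p over the 8 ratios was 1 for each. Jchain made up most of the plasma cell sum, with a mean of 134484 of 153301 scaled counts in C105F/+. With the mean log2 over the list in place of the sum, the plasma cell difference was 0.36 for Itgae. For Pacsin1 it was -0.19 (exact permutation p = 0.669 and 0.816). The NK cell difference became 0.07 for Itgae and -0.47 for Pacsin1 (exact permutation p = 0.948 and 0.576). For T and B cell rows the differences were 0.13 and 0.51 for Itgae and -0.42 and -0.04 for Pacsin1. Itga1, also counted among the integrin chains below, had a mean of 99.7 of the 212 scaled counts of NK cell rows in wild type. A missed threshold does not show that the genes and the lymphocyte rows moved alike, since the wild type SD of these ratios was 1.17 to 1.92, much of it from wild type 4. Both genes and all list rows had also been kept by the authors for a difference, and all were higher in C105F/+. That selection shapes the ratios, which therefore cannot decide whether the genes moved apart from lymphocyte transcripts.

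Without wild type 4 the mean Pacsin1 ratio was lower in C105F/+ for all 4 lists, and for T cell rows all 5 C105F/+ libraries lay below all 5 wild type libraries. The differences were -0.86 to T cell rows (exact permutation p = 0.0079, the smallest that 5 against 5 libraries allow; adjusted p = 0.0635 over 8), -0.78 to B cell rows, -1.24 to plasma cell rows and -0.71 to NK cell rows (exact permutation p = 0.0635, 0.0476 and 0.0794; adjusted p = 0.159 each). None passed the adjustment, which does not cover the choice of wild type 4. That library stood apart in these same ratios, and leaving it out was 1 of 11 such fits. With any other single library left out, the exact permutation p for Pacsin1 to T cell rows was 0.619 to 0.981. The list rows had also been kept for their difference. For Itgae the differences without wild type 4 were smaller, -0.26, -0.18, -0.64 and -0.11. In the 5 C105F/+ libraries the Pacsin1 to T cell ratio was lowest in C105F/+ 2, at -0.16, and 0.85 to 1.28 in the others. Regulatory and tissue-resident T cells can carry Itgae, but no value here shows which cells its reads came from. Whether lymphocytes among the enriched cells had a part in the Itgae difference was not tested.

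**Figure D4:**
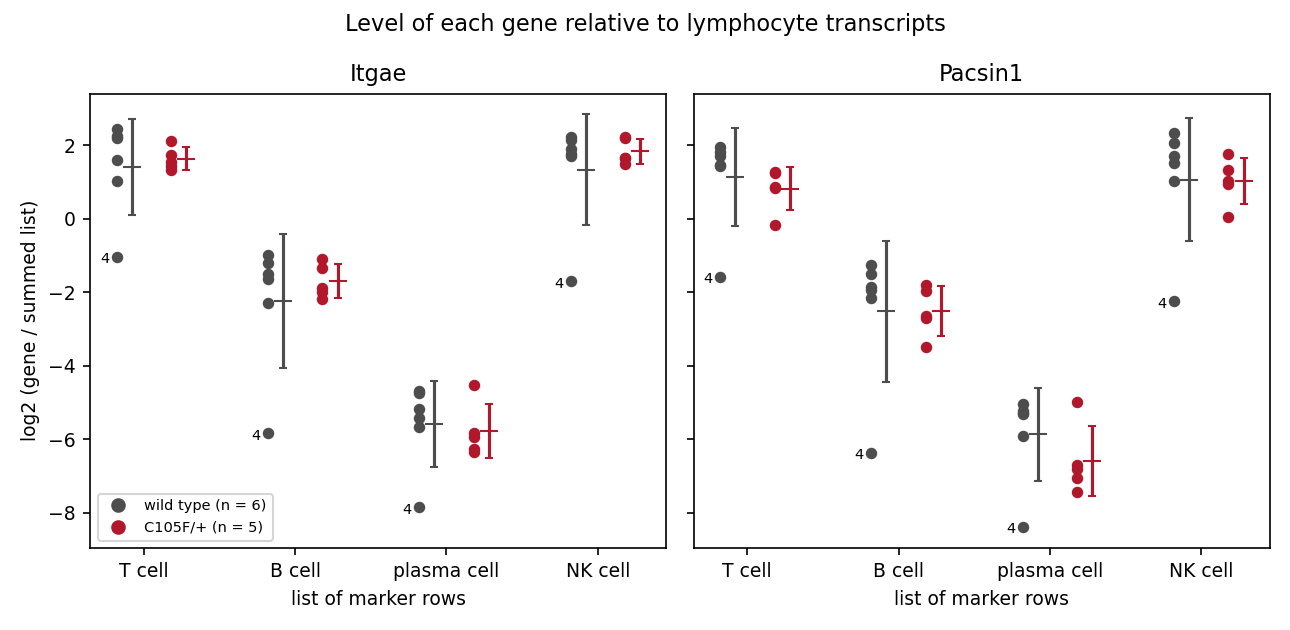
Log2 ratio of Itgae (left) and Pacsin1 (right) to the summed rows of each lymphocyte list in every library, with the mean and SD of each group; wild type 4 is marked 4. Wild type 4 lies lowest in every column, and the remaining wild type points overlap those of C105F/+ in all columns except Pacsin1 to T cell rows.

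Within wild type, r between each gene and the B cell sum was -0.94 for Itgae and -0.97 for Pacsin1 (exact permutation p = 0.0583 and 0.0472, adjusted p = 0.263 for both; rho -0.60 for both, exact permutation p = 0.242, adjusted p = 0.535). Without wild type 4 and wild type 6, the farthest from the median B cell sum, r was 0.05 for Itgae and -0.68 for Pacsin1 (n = 4), and without wild type 4 alone it was -0.26 and -0.39. On scaled counts these relations rest largely on wild type 4. On FPKM, rho was -0.60 for Itgae and -0.89 for Pacsin1 (exact permutation p = 0.242 and 0.0333, adjusted p = 0.725 and 0.3). Without wild type 4, r on FPKM was -0.30 for Itgae and -0.69 for Pacsin1. Without wild type 4 and 6 it was 0.19 and -0.89 (n = 4), so the Pacsin1 relation depended less on wild type 4 there. On scaled counts the other 6 relations with lymphocyte sums had r from -0.72 to 0.29 and rho from -0.71 to 0.54. Their adjusted exact permutation p was 0.294 or more. They too changed without wild type 4 (n = 5), as a description with no test. For Itgae, r went from -0.48 to 0.83 with NK cell rows and from -0.42 to -0.75 with T cell rows. For Pacsin1 it went from -0.13 to 0.47 with T cell rows and from -0.72 to -0.27 with NK cell rows. With plasma cell rows it went from 0.29 to 0.25 for Itgae and from 0.22 to -0.03 for Pacsin1. With 5 libraries, C105F/+ is described by its values alone.

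Rows that varied most like each gene were sought after subtracting each group's mean, so that the difference between group means did not enter. The deviation of C105F/+ 3 from its own group, described above, still entered. All rows had been selected for the genotype difference, so rows can share this deviation. Over 11 libraries and 313 rows, the 5 nearest to Itgae were Zfp36l2, an RNA-decay factor (r = 0.93), Cdh5, the cadherin of endothelium (0.93), Trib1, a pseudokinase (0.93), Itga8, an integrin alpha chain (0.92), and Dntt, the enzyme that adds bases to rearranging antigen receptor genes in lymphoid precursors (0.92). For Pacsin1 they were Dntt (0.99), Cd209c, a C-type lectin of the DC-SIGN family (0.98), the immediate-early factor Egr3 (0.98), Cdh5 (0.96) and Zfp36l2 (0.96). Itgae and Pacsin1 had an r of 0.89 with each other.

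Wild type 4 was the lowest wild type library in all 7 of these rows, and much of the likeness rested on it. Without that library Dntt (r = 0.96) and Egr3 (0.94) remained nearest to Pacsin1, followed by Fosb, another immediate-early factor (0.94), and Cmah, an enzyme of sialic acid synthesis (0.93). None of the 5 nearest to Itgae was kept. Their places went to Tram2, a protein of the translocon (0.96), Il2rb (0.93), the transcription factor Creb3l2 (0.93), the lymphocyte adaptor Lax1 (0.91) and Enpp1, an ectonucleotide pyrophosphatase (0.90). The r between Itgae and Pacsin1 was then 0.60. These correlations describe libraries that share their scaling. C105F/+ 3 was not left out here, so how far the remaining likeness, that of Dntt and Egr3 included, rests on that library was not tested.

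Within C105F/+, Dntt had 332 scaled counts in library 3 and 712 to 1151 in the rest. Within wild type it had 51.3 in library 4 and 369 to 557 in the rest. It was 2.14-fold higher in C105F/+ and did not pass (edgeR adjusted p = 0.052, exact permutation p = 0.0519). The order of libraries in Dntt followed that of Pacsin1 closely, with C105F/+ 5 and 6 highest and C105F/+ 3 and wild type 4 lowest of their groups.

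**Figure D5:**
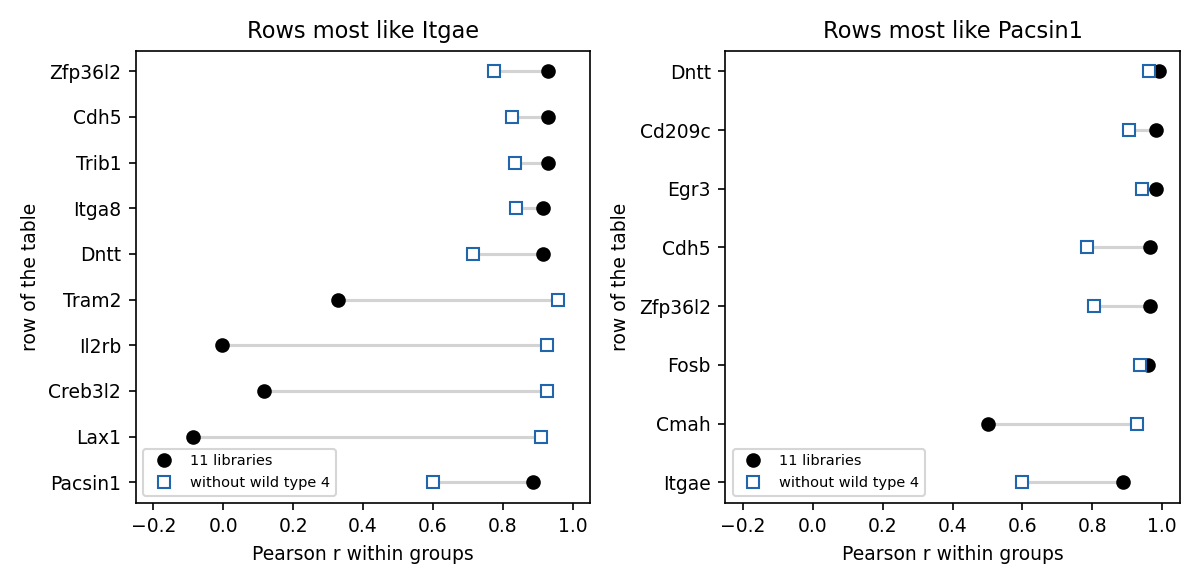
Pearson r, within groups, of log2 scaled counts between Itgae (left) or Pacsin1 (right) and the 5 rows nearest over all libraries, the 4 nearest without wild type 4 and the other gene of the pair, over 11 libraries (filled circles) and without wild type 4 (open squares). The rows nearest to Itgae change when wild type 4 is left out, whereas Dntt and Egr3 stay near Pacsin1.

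Few other genes around either protein had a row. Of 26 integrin chains 4 had one, and each had been kept by the authors for a difference. All 4 were higher and called by edgeR, against 52.5% of all rows tested. By the authors' adjusted p 3 of the 4 were called, against 21.1% of all 417 rows called higher. Itga8 was not, with an authors' adjusted p of 0.161. With TMM or DESeq2 factors computed on the rows the log2 fold changes of all 4 chains stayed above 0 but were not called. Itgal, the alpha chain of the leukocyte integrin LFA-1, had 17442 ± 6222 scaled counts against 8207 ± 1958 (2.13-fold, edgeR adjusted p = 0.0295). Itga1, a collagen-binding chain, was 2.43-fold higher (edgeR adjusted p = 0.0295). Itga8, a chain that binds RGD sequences in the matrix, was 2.44-fold higher (edgeR adjusted p = 0.046), with 14.7 scaled counts in wild type 4 and 243 to 419 in the other wild type libraries. Itgae had the largest fold of the 4 chains, also with the other 2 scalings. None of 24 genes for the partner chain, ligand and regulators of CD103, Itgb7, Cdh1 and Tgfb1 among them, had a row.

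Of 30 genes for the PACSIN family, its partners in membrane traffic and the route of Toll-like receptors 7 and 9, only Pacsin1 and Ehd3 had rows. Ehd3, an ATPase of endosome recycling, had 126 ± 89.5 scaled counts against 37.3 ± 21.2 (3.37-fold, edgeR adjusted p = 0.0295). Unlike Pacsin1 it was highest in wild type 4 among wild type libraries, with 78.5. No cDC2 gene of 14 had a row, and neither did the remaining 17 cDC1 genes and 25 plasmacytoid genes, Xcr1, Clec9a, Siglech and Tcf4 among them. A missing row leaves the level of a gene unknown, since only selected rows are listed. The subset identity of the cells could therefore not be checked beyond Itgae and Pacsin1.

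Summed rows of further blood cells had higher means in C105F/+, with groups that overlapped. Neutrophil rows (6 of 19 listed) summed to 1348 to 29639 scaled counts in C105F/+ and 1125 to 7770 in wild type, and 5 of 6 were called higher. Eosinophil, basophil and mast cell rows (4 of 19) summed to 375 to 8372 and 340 to 1284, with 3 called higher and 1 lower. Monocyte and macrophage rows (3 of 19) summed to 2673 to 13111 and 559 to 6897, and erythroid and platelet rows (3 of 17) to 516 to 4302 and 212 to 1441, with 2 called higher in each, against 52.5% of all rows tested. The row called lower was Mcpt1, a mast cell protease, and Mpo, Cd300e and Ppbp did not pass (edgeR adjusted p = 0.063, 0.0557 and 0.0647). The authors' deposited table calls 2 neutrophil rows, 1 row of the eosinophil list and 0 monocyte or erythroid rows, against 21.1% of all rows called higher. With TMM factors on the rows 0 neutrophil, monocyte or erythroid rows were called, and the eosinophil list kept 2 higher calls and 1 lower. Over all 323 rows tested there, 8 were called higher and 106 lower. The log2 fold changes of Cd300e and Ppbp were below 0 with these factors. With DESeq2 factors on the rows 1 neutrophil row, Retnlg, was called (edgeR adjusted p = 0.0416), and the eosinophil list again had 2 higher calls and 1 lower. Over all 320 rows tested there, 12 were called higher and 91 lower. The genes named in these lists were chosen after their values were seen. Wild type 4 had the lowest monocyte and erythroid sums and the highest neutrophil and eosinophil sums of its group. The part of these cells in the values of Itgae and Pacsin1 was not tested.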

How the data were processed

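The authors deposited 1 table of 417 genes. The submitters' processing notes name HISAT2 2.1.0 and Bowtie2 2.3.4.1, build mm10, FastQC 0.11.7 and Trimmomatic 0.38, StringTie 2.1.3b and DESeq2, with no settings. Raw read counts were deposited per library. The authors also gave FPKM, and log2 normalized values whose transformation is unknown here. The deposited fold is a signed score, the deposited mean a signal on the scale of counts over size factors, and the p-values, unadjusted and adjusted, are the authors' own.

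Size factors were recovered by least squares from the counts and the deposited means (largest relative error 4.7e-15). edgeR 4.0.16 (R 4.3.3) tested counts by its quasi-likelihood test with filterByExpr, which left 322 rows, and Benjamini-Hochberg adjustment; SE is the log2 fold change over the root of F. Ratios used log2 values with a pseudocount of 1 and exact two-sided permutation. Intervals of counting error were not added, because the totals are unknown. The edgeR step was tested on simulated counts. The members, gene lists and tests were chosen with earlier results of these data known. Named rows were Itgae, Pacsin1, all rows of the dendritic cell, integrin, CD103 and PACSIN lists, the 3 most abundant rows of each lymphocyte list and the 5 nearest rows of each gene (mean scaled count at least 10); rows nearest without wild type 4 were added after the values were seen, and 1 of them is not reported here.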

Additional observations from a re-analysis of the deposited data

Results flagged for a closer look

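A library was singled out where its gap to the nearest other library of its group was large for the range of the group (Dixon's 95% limit). Of 30 groups of values examined 10 were singled out. Chance alone does so in about 1 of 20 independent groups. These groups overlap, because the ratios reuse the values of the genes and sums, so the 10 cannot be set against that rate. Of these, 9 were wild type 4. It was far below the other wild type libraries in Pacsin1, with 68.1 scaled counts, and far above them in the summed B cell rows, with 5721. Its log2 ratio of Itgae was low against B cell rows (-5.83), plasma cell rows (-7.85) and NK cell rows (-1.70). Its log2 ratio of Pacsin1 was low against T cell rows (-1.57), B cell rows (-6.37), plasma cell rows (-8.39) and NK cell rows (-2.24). The tenth was C105F/+ 3, whose log2 ratio of Itgae to plasma cell rows, -4.51, was high for its group. The cause was not tested.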

How the results depend on the processing

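Both genes kept a higher mean in C105F/+ under every alternative fit of counts, FPKM and log2 values run. Scaled on the selected rows themselves, Itgae had a log2 fold change of 0.84 (TMM) or 1.09 (DESeq2 size factors) and Pacsin1 0.26 or 0.49, and neither passed. These scalings lowered the median of all rows from 1.11 to 0.16 and 0.36, and relative to that median Itgae stood at 0.69 and 0.73 and Pacsin1 at 0.10 and 0.13. With 1 library left out, the log2 fold change was 1.68 to 2.12 for Itgae, past the threshold in 8 of 11 fits, and 1.06 to 1.47 for Pacsin1, past it in 7 of 11. Leaving out C105F/+ 2 gave 8 rows called higher, leaving out C105F/+ 5 gave 10 and leaving out C105F/+ 6 gave 13, against 169 in all libraries. Same-numbered libraries did not deviate together (r -0.09 to 0.12, and 1 of 5 C105F/+ libraries was nearest to its own number). The labels state no pairing, and so low an r over selected rows cannot decide whether the numbers pair the libraries. With the replicate block the log2 fold changes were 2.15 and 1.52 (adjusted p = 0.0876 and 0.0915) and 0 rows were called (166 at an unadjusted p under 0.05), against 171 without the block in the same libraries, where Pacsin1 had 1.30 (adjusted p = 0.0517, an alternative added after seeing the data). DESeq2's Wald test, no filter on low counts and limma on log2(FPKM + 1) or on the authors' log2 values called both genes. No ratio passed with FPKM, with a mean over the list, with a pseudocount of 0.5 (Itgae to Pacsin1 only), in sign-flipped pairs (smallest possible p = 0.0625) or with 1 library left out, and no correlation passed its adjustment (none was run with fewer than 6 libraries as a test). Without wild type 4, 0 of the 5 rows nearest to Itgae and 2 of the 5 nearest to Pacsin1 were kept.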
